A study of Mus musculus with 10 samples.

Results

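Integrins and laminins are the partners in one of the main contacts between a cell and its matrix, and they are described here over 5 mouse cell cultures that lead to neural stem cells. Every gene whose symbol begins with Itga or Itgb, or with Lama, Lamb or Lamc and a number, was taken, which gave 41 of the 19938 genes measured. Of these, 18 encode integrin alpha subunits and 10 laminin chains, and 9 were counted as beta subunits, the beta-like Itgb2l among them. The other 4 carry an integrin symbol but encode no receptor subunit: Itgb1bp1 binds the tail of the Itgb1 protein, Itgb1bp2 is the muscle protein melusin, Itgb3bp is a kinetochore protein and Itgbl1 is a secreted protein related to beta subunits.

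The ESC group held R1 mouse embryonic stem (ES) cells kept on feeder fibroblasts that mitomycin C had stopped from dividing, in 15% fetal bovine serum with 1000 U/ml of Lif, which keeps such cells from differentiating. The pNSC_L group held primitive neural stem cell spheres made from R1 cells without serum in N2 medium with 1000 U/ml Lif. The pNSC_LF group was such cells passaged in 1000 U/ml Lif, 10 ng/ml FGF and 2 µg/ml heparin. The dNSC group was definitive neural stem cells obtained from the primitive ones in N2 and B27 with 20 ng/ml EGF, 20 ng/ml FGF and 2 µg/ml heparin, and without Lif. The CNS_NSC group was neural stem cells from the frontal lobes of the brain of wild-type E11.5 embryos of the ICR strain, grown in N2 medium with the same 20 ng/ml EGF, 20 ng/ml FGF and 2 µg/ml heparin. Each group had 2 biological replicates with 1 array each. ESC, pNSC_L, pNSC_LF and dNSC all stem from the single R1 line, and in any comparison with CNS_NSC the strain, the origin and the B27 supplement cannot be told apart. Between ESC and pNSC_L the serum, the feeders and growth as spheres changed together. From pNSC_LF to dNSC the Lif, the EGF and the FGF dose changed together, and B27 is named above for dNSC alone. In these comparisons culture conditions and cell stage cannot be told apart.

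An integrin is a pair of 1 alpha and 1 beta subunit that spans the membrane, grips matrix proteins outside the cell and is tied to the actin skeleton inside. A laminin is a trimer of an alpha, a beta and a gamma chain, and laminins form the sheet on which a basement membrane is built. In the embryo the first basement membranes contain Lama1, Lamb1 and Lamc1, and in the developing brain neural stem cells touch laminin at both surfaces of the neural tube wall. Itgb1 pairs with most alpha subunits, Itgav accepts several beta subunits, and Itgb4 and Itgb8 each have a single alpha partner, Itga6 for Itgb4 and Itgav for Itgb8.

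Values are log2 intensities. Each difference subtracts the group named second and carries the limma SE after ±, with 2 arrays in each group. Rise and fall are used where the limma p, adjusted over all 19938 genes, was below 0.05. Array medians lay between 7.66 and 7.76, and a group mean under 6.43, the lower quartile of all probe sets, is called dim here. The ES cell gene Pou5f1 read 12.86 and 12.66 in ESC, 11.15 and 10.94 in dNSC and 6.97 and 6.92 in CNS_NSC, so the dNSC arrays lay between the other 2 groups. Nes, the intermediate filament of neural stem cells, read 10.04 and 9.84 in dNSC, against 7.48 and 7.47 in ESC. Replicate arrays differed by at least 2-fold at 167 genes in pNSC_L and 277 in CNS_NSC, against 1 to 30 genes in the other groups. In bulk RNA, fewer cells of a kind and less RNA per cell cannot be told apart. That the replicates were called biological does not say whether they came from separate derivations.

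The promoters of 4 genes are shown as examples, and no result below rests on them. Itgb8 and Itga8 rose together in dNSC, while Itga5 and Lamb1 were lower in pNSC_L than in ESC and higher in dNSC than in pNSC_LF. Itga1, Itga3 and Itgb1 shared the pattern of Itga5 and Lamb1, and their promoters are not shown. Each is the RefSeq window of GRCm38.p6 from 250 bases before to 50 bases after the gene start, written 5′ to 3′ along the gene, with motif matches in capitals. Itgb8 lies at chr12:119238227-119238526 on the minus strand, Itga8 at chr2:12301895-12302194 on the minus strand, Itga5 at chr15:103366742-103367041 on the minus strand, and Lamb1 at chr12:31265043-31265342 on the plus strand.
Itgb8: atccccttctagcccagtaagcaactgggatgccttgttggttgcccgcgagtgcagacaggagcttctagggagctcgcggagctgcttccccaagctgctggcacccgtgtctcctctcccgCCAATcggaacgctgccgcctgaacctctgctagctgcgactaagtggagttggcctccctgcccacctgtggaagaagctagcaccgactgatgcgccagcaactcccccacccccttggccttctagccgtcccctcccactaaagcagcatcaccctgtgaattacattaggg
Itga8: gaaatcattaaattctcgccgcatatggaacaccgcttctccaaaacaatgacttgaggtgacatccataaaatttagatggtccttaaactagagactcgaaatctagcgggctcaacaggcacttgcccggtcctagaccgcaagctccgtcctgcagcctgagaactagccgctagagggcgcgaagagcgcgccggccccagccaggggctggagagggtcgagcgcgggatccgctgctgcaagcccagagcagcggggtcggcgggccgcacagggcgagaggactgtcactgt
Itga5: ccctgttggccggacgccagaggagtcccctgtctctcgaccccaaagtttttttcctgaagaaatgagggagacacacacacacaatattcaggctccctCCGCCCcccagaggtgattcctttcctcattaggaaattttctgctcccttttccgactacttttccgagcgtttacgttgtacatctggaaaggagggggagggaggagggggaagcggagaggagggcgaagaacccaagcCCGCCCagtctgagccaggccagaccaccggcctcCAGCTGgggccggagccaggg
Lamb1: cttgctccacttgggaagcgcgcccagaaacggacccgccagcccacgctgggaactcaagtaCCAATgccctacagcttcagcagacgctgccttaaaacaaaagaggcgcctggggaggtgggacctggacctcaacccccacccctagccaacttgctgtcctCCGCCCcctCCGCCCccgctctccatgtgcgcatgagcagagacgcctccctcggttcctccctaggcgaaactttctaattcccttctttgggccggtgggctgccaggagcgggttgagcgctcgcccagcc

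On either strand the search covered the GC box GGGCGG, the CCAAT box CCAAT, the TATA box TATAAA, the Sox core ACAAAG, the E box CAGCTG and the AP-1 site TGANTCA. The Itgb8 window held a CCAAT box at -126, counted with the gene start as 0, and the Itga8 window held no match to these letters. The Itga5 window held GC boxes at -149 and -6 and an E box at 29, and the Lamb1 window held GC boxes at -84 and -75 and a CCAAT box at -187. Of all 32851 windows in the table, 35.7% held a GC box, 37.4% a CCAAT box, 13.6% a TATA box, 18.7% the Sox core, 16.3% the E box and 7.81% the AP-1 site. The 4 windows were rich in G and C, with 60.7% for Itgb8, 59.0% for Itga8, 58.7% for Itga5 and 63.7% for Lamb1, against a median of 52.7% over all windows. Itga8 held 23 CpG pairs, Lamb1 18, Itgb8 13 and Itga5 13, against a median of 7. A match describes the letters only, and RefSeq windows were matched for 27 of the 41 genes.

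Most integrin and laminin genes, like most genes measured, differed somewhere among the 5 cultures. By limma's F test 27 of 41 passed, against 57.7% of all genes. These were 12 of 18 alpha subunits, 5 of 9 counted as beta subunits, 9 of 10 laminin chains and 1 of the other 4. Among the 27, 11 were highest in CNS_NSC (40.7%, against 30.1% of all genes that passed) and 7 were lowest there (25.9%, against 31.8%). In ESC 8 were lowest (29.6%, against 19.1%) and 4 highest (14.8%, against 19.4%), namely Itga3, Itga9, Itgb3 and Itgb7. In pNSC_LF 6 were highest (22.2%, against 13.6%), namely Itga6, Itgal, Itgb4, Lama1, Lama5 and Lamb3. In dNSC 4 were highest (14.8%, against 22.6%), namely Itga5, Itga8, Lama2 and Lamb1, and in pNSC_L 2 were (7.4%, against 14.3%), namely Lama3 and Lamc1. These shares are a description, with no test. The map of group means shows these blocks.

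**Figure D1:**
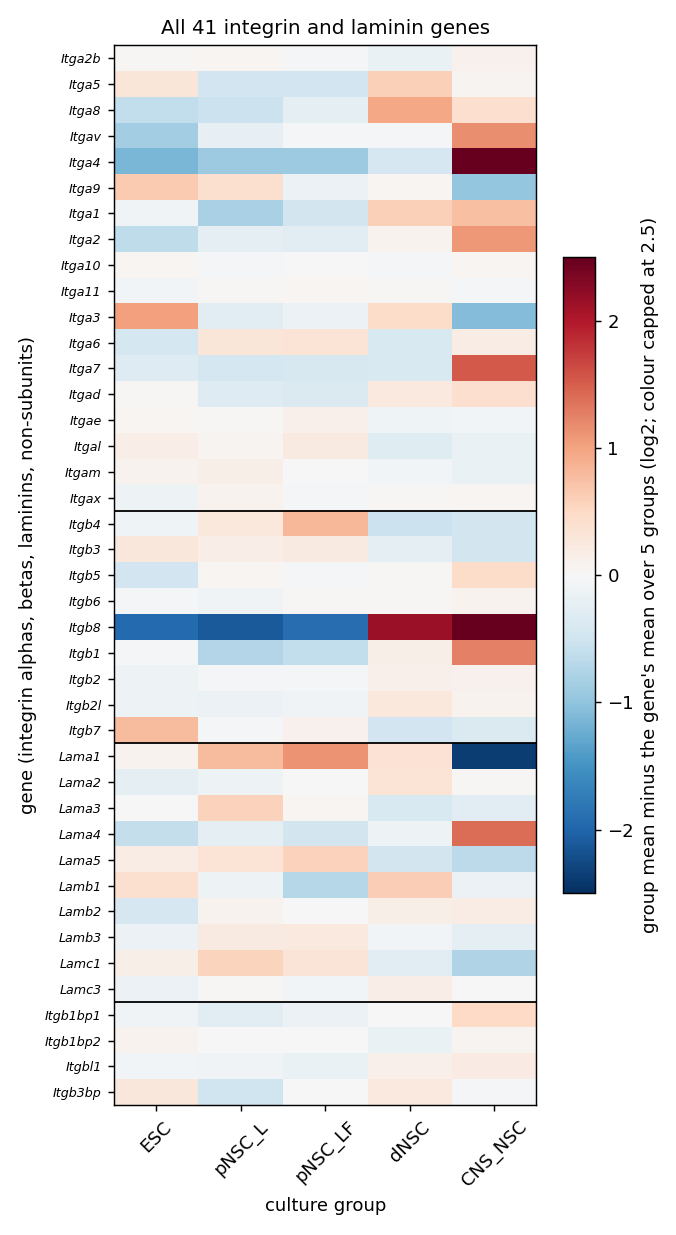
Group means of the 41 integrin and laminin genes (rows) in ESC, pNSC_L, pNSC_LF, dNSC and CNS_NSC (columns), each centred on the gene's mean over the 5 groups, in log2 units with the colour scale capped at both ends. The strongest contrasts are Itgb8, high in dNSC and CNS_NSC, Itga4 and Itga7, high in CNS_NSC, and Lama1, low in CNS_NSC.

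The step from ES cells to pNSC_L spheres moved 12 of the 41 genes, 6 up and 6 down, or 29.3% against 13.4% of all genes (6.56% higher and 6.79% lower). Higher in pNSC_L were Itga6, Itgav, Itgb4, Lama3, Lamb2 and Lamb3, and lower were Itga1, Itga3, Itga5, Itgb1, Itgb7 and Lamb1. The median difference over the 41 genes was 0.02, the same as over all genes, and the median size of a difference was 0.22 against 0.16. Only Itga3 fell by more than 2-fold. The count fell to 3 without ESC replicate 1 and to 6 without ESC replicate 2.

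Passage of the spheres with FGF moved few genes of any kind. Among the integrins and laminins, Itgb4 alone rose in pNSC_LF over pNSC_L, 1 of 41 or 2.44%, against 1.78% of all genes (1.1% higher and 0.677% lower), and 6 of the 41 had an unadjusted limma p below 0.05. The median size of a difference was 0.11, against 0.12 over all genes. The count was 0 when ESC replicate 1, ESC replicate 2, pNSC_LF replicate 1 or pNSC_LF replicate 2 was left out, with 4 or 5 genes then at an unadjusted limma p below 0.05. It was 3 without pNSC_L replicate 2, CNS_NSC replicate 1 or CNS_NSC replicate 2.

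The step to dNSC moved 18 of 41 genes against pNSC_LF, 9 up and 9 down, or 43.9% against 38.6% of all genes (19.3% higher and 19.3% lower). Higher in dNSC were Itga1, Itga3, Itga5, Itga8, Itgad, Itgb1, Itgb8, Lama2 and Lamb1. Lower were Itga6, Itgal, Itgb3, Itgb4, Itgb7, Lama1, Lama3, Lama5 and Lamb3. Against ESC, which is a separate comparison that uses the same dNSC arrays, 16 differed, 9 higher and 7 lower, or 39% against 40.5% of all genes (20.7% higher and 19.9% lower). Both shares lay near that of all genes. At least 2-fold and called were 7 of 41 genes against pNSC_LF (12.2% of all genes) and 3 of 41 against ESC (12.3% of all genes).

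Against CNS_NSC, the dNSC arrays differed at 15 of 41 genes, 6 higher and 9 lower, or 36.6% against 34% of all genes (17.6% higher and 16.5% lower). Higher in dNSC were Itga3, Itga8, Itga9, Lama1, Lama2 and Lamb1, and lower were Itga2, Itga4, Itga6, Itga7, Itgav, Itgb1, Itgb8, Itgb1bp1 and Lama4. The median size of a difference was 0.23, as over all genes, but 10 of the 41 were called and at least 2-fold apart, against 10.4% of all genes. This comparison again uses the dNSC arrays of the previous ones.

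**Figure D2:**
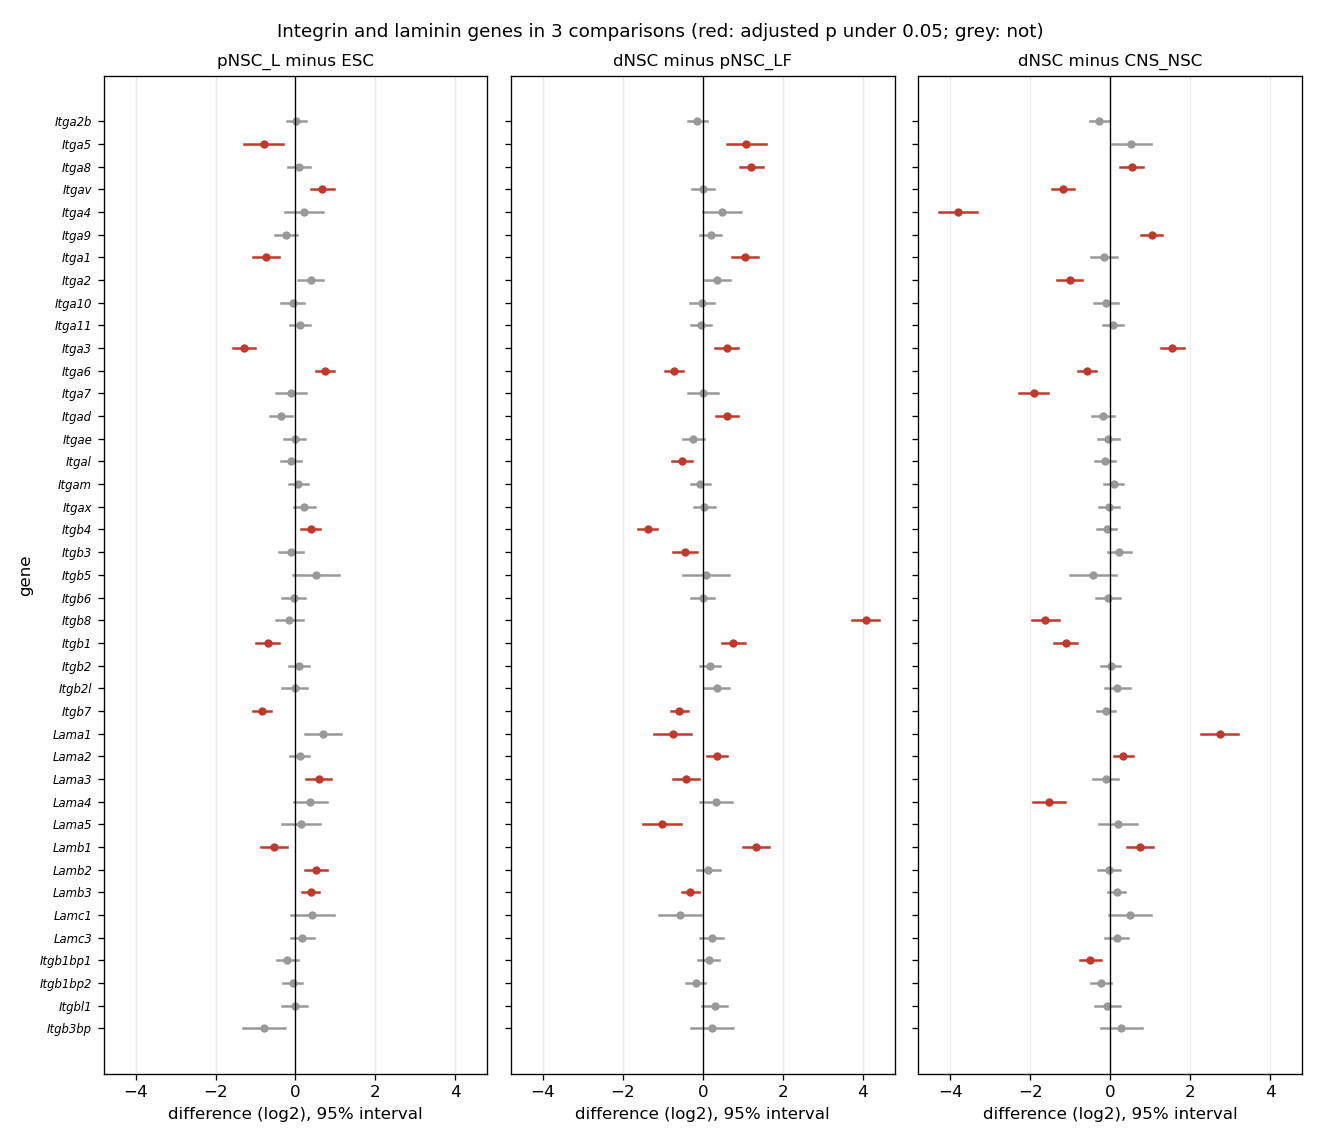
Differences in log2 intensity (x axis) of the integrin and laminin genes (y axis) in pNSC_L minus ESC, dNSC minus pNSC_LF and dNSC minus CNS_NSC. Points are the limma estimates, bars are their 95% intervals, and called genes are in red. Itgb8 stands far to the right in dNSC minus pNSC_LF at 4.07, and Itga4 far to the left in dNSC minus CNS_NSC at -3.81.

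The receptors for laminin went different ways along the series. Itga6, the most general laminin-binding alpha subunit, read 11.11 and 11.23 in ESC, 11.89 and 11.93 in pNSC_L, 11.95 and 11.92 in pNSC_LF, 11.26 and 11.18 in dNSC and 11.71 and 11.88 in CNS_NSC. Its 4 sphere arrays with Lif all lay above the ESC and dNSC arrays. It rose by 0.74 ± 0.10 in pNSC_L over ESC (limma adjusted p = 0.0014) and fell by 0.72 ± 0.10 in dNSC against pNSC_LF (adjusted p = 0.00032). It differed by 0.05 ± 0.10 between dNSC and ESC (adjusted p = 0.74, 95% interval -0.18 to 0.28) and was 0.58 lower in dNSC than in CNS_NSC (difference -0.58 ± 0.10, adjusted p = 0.0016).

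Itgb4, which anchors epithelial cells to laminin in hemidesmosomes, read 8.27 and 8.30 in ESC, 8.70 and 8.63 in pNSC_L, 9.25 and 9.21 in pNSC_LF, 7.96 and 7.74 in dNSC and 7.90 and 7.96 in CNS_NSC. The pNSC_LF arrays stood above all others, and dNSC and CNS_NSC overlapped. Itgb4 rose by 0.38 ± 0.11 in pNSC_L (limma adjusted p = 0.041) and by a further 0.57 ± 0.11 in pNSC_LF (adjusted p = 0.028), then fell by 1.38 ± 0.11 in dNSC (adjusted p = 3.9e-06). The first rise was no longer called at 0.37 (adjusted p = 0.18) without ESC replicate 1, at 0.39 (adjusted p = 0.15) without ESC replicate 2 and at 0.34 (adjusted p = 0.11) without pNSC_L replicate 1. Nor was the second, at 0.55 (adjusted p = 0.26) without pNSC_LF replicate 1 and at 0.59 (adjusted p = 0.18) without pNSC_LF replicate 2. The fall in dNSC against ESC, -0.44 ± 0.11 (adjusted p = 0.0072), was not called without dNSC replicate 2 (-0.33, adjusted p = 0.084).

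Itga3, which binds laminins rich in the Lama5 and Lama3 chains, behaved in the opposite way to Itga6 in the first step. It read 9.25 and 9.21 in ESC, 8.12 and 7.76 in pNSC_L, 8.01 and 8.10 in pNSC_LF, 8.62 and 8.68 in dNSC and 7.02 and 7.18 in CNS_NSC. The 5 groups fell into 4 levels, ESC above dNSC, then the 2 kinds of primitive sphere together, then CNS_NSC. Itga3 fell by 1.29 ± 0.13 in pNSC_L (limma adjusted p = 0.00025), rose by 0.60 ± 0.13 in dNSC over pNSC_LF (adjusted p = 0.0038) and was 1.55 ± 0.13 higher in dNSC than in CNS_NSC (adjusted p = 7.9e-06). Against ESC, dNSC lay lower by -0.58 ± 0.13 (adjusted p = 0.0045).

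Itga7, a laminin receptor subunit best known from muscle, was at one level in all 4 R1-derived cultures and higher in the brain cells. It read 7.43 and 7.41 in ESC, 7.36 and 7.26 in pNSC_L, 7.38 and 7.31 in pNSC_LF, 7.41 and 7.29 in dNSC and 8.98 and 9.57 in CNS_NSC. The 8 R1-derived arrays spanned little and both CNS_NSC arrays stood apart. The difference, dNSC minus CNS_NSC, was -1.92 ± 0.17 (limma adjusted p = 1.1e-05), and dNSC minus pNSC_LF was 0.01 ± 0.17 (adjusted p = 0.98, 95% interval -0.36 to 0.38).

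Itgb1, the common beta chain of most of these receptors, read 10.88 and 10.75 in ESC, 9.94 and 10.31 in pNSC_L, 10.21 and 10.30 in pNSC_LF, 10.99 and 11.04 in dNSC and 12.10 and 12.15 in CNS_NSC. Both primitive groups were lowest and CNS_NSC highest, with no overlap between these and the rest. Itgb1 fell by 0.69 ± 0.13 in pNSC_L (limma adjusted p = 0.0068), rose by 0.76 ± 0.13 in dNSC over pNSC_LF (adjusted p = 0.00095) and was lower in dNSC than in CNS_NSC, by -1.11 ± 0.13 (adjusted p = 8.5e-05). Without ESC replicate 1 the first fall was -0.62 (adjusted p = 0.068). Between dNSC and ESC it differed by 0.20 ± 0.13 (adjusted p = 0.27, 95% interval -0.09 to 0.48).

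**Figure D3:**
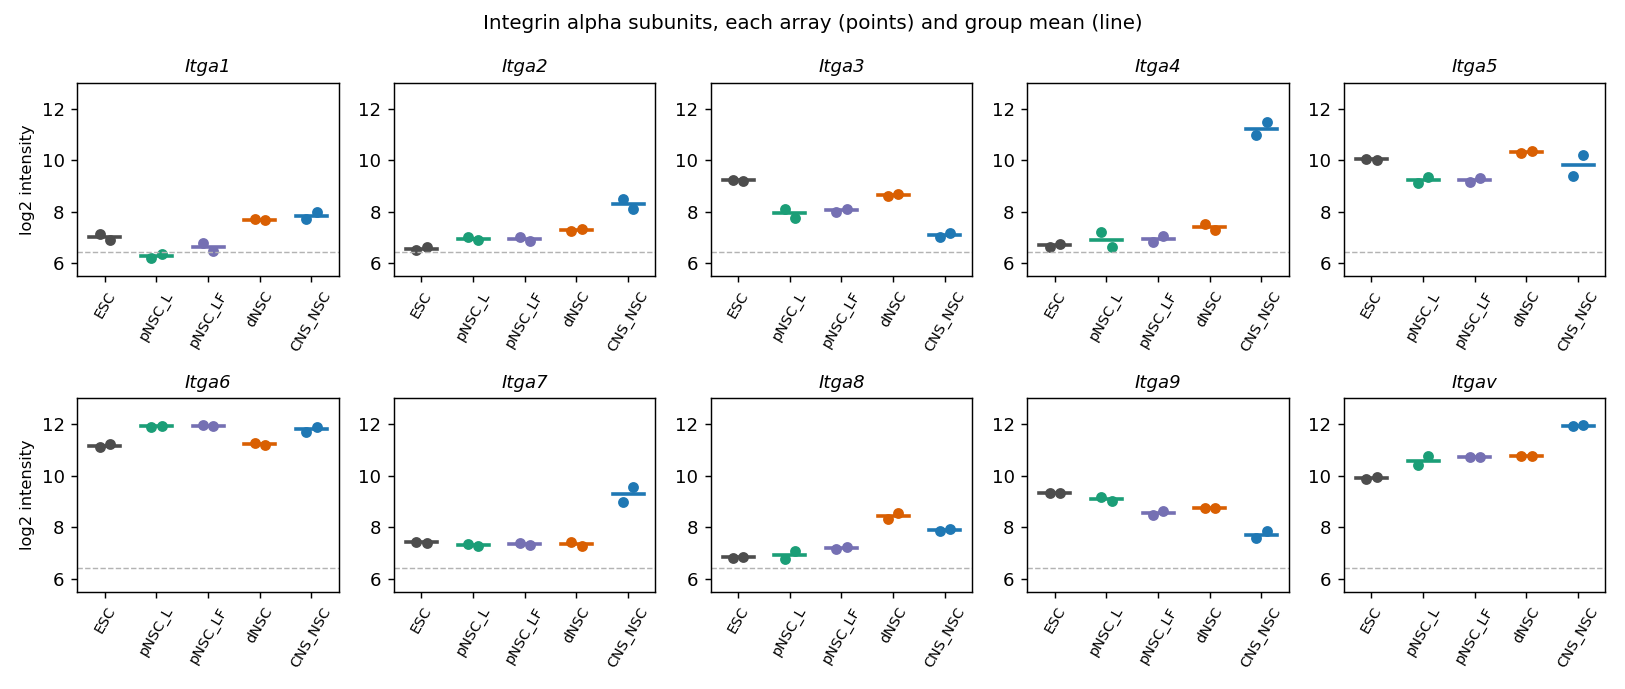
Log2 intensity (y axis) of 10 integrin alpha subunits on each array (points) with the group mean (line) in ESC, pNSC_L, pNSC_LF, dNSC and CNS_NSC (x axis); the dashed line marks the lower quartile of all probe sets, 6.43. Itga4 and Itga7 stand high only on the 2 CNS_NSC arrays, Itga8 on dNSC and CNS_NSC arrays, and Itga3 is highest in ESC.

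Receptors for fibronectin, vitronectin and other ligands with the RGD motif held the largest change of the whole set. Itgb8, the beta chain that with Itgav activates latent TGF-beta and is known from neural progenitors, read 6.79 and 7.02 in ESC, 6.96 and 6.54 in pNSC_L, 6.99 and 6.89 in pNSC_LF, 10.98 and 11.04 in dNSC and 12.74 and 12.52 in CNS_NSC. The 6 arrays grown with Lif lay near the lower quartile of the table, and both neural stem cell groups lay far above them without overlap. Itgb8 rose by 4.07 ± 0.15 in dNSC over pNSC_LF, or 16.8-fold (limma adjusted p = 4.7e-08), and by 4.10 ± 0.15 over ESC (17.2-fold, adjusted p = 5.1e-08). It was lower in dNSC than in CNS_NSC by -1.62 ± 0.15 (adjusted p = 1.8e-05). Between pNSC_L and ESC it differed by -0.16 ± 0.15 (adjusted p = 0.60).

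Itgav, the alpha partner of Itgb8, rose in another step. It read 9.87 and 9.94 in ESC, 10.40 and 10.77 in pNSC_L, 10.74 and 10.75 in pNSC_LF, 10.76 and 10.75 in dNSC and 11.93 and 11.96 in CNS_NSC. ESC was lowest, CNS_NSC highest, and the 3 groups between them overlapped. The rise in pNSC_L over ESC was 0.68 ± 0.12 (limma adjusted p = 0.0061; 0.64 with adjusted p = 0.057 without ESC replicate 1). Between dNSC and pNSC_LF the difference was 0.01 ± 0.12 (adjusted p = 0.96, 95% interval -0.27 to 0.29). In dNSC it was lower than in CNS_NSC by -1.19 ± 0.12 (adjusted p = 4.2e-05).

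Itgav also pairs with Itgb1, described above, and with Itgb3, Itgb5 and Itgb6. Itgb3, known from platelets and bone-resorbing cells, fell by 0.45 ± 0.13 in dNSC against pNSC_LF (limma adjusted p = 0.021) and by 0.52 ± 0.13 against ESC (adjusted p = 0.0095). Leaving out any of the 4 arrays compared ended the first call, with differences between -0.54 and -0.40 over all settings, and the second was not called without ESC replicate 1 or dNSC replicate 2. Itgb5, a vitronectin receptor chain, read 9.785 and 9.648 in ESC and ran between 10.13 and 10.25 on the other R1-derived arrays. Its differences from ESC, 0.52 ± 0.26 in pNSC_L and 0.51 ± 0.26 in dNSC, were not called (limma adjusted p = 0.24 and 0.15). That in dNSC was called with array weights and with only the 2 groups compared. In CNS_NSC Itgb5 read 11.18 and 10.12, and it alone of the 41 genes had replicates that differed by at least 2-fold. Its comparison of dNSC with CNS_NSC was not called, and it was -0.95 and called without CNS_NSC replicate 2 but 0.11, of the opposite sign, without CNS_NSC replicate 1. Itgb6 was the only member dim in all 5 groups.

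Itga5, the fibronectin receptor subunit whose promoter is printed above, read 10.04 and 10.03 in ESC, 9.14 and 9.34 in pNSC_L, 9.15 and 9.32 in pNSC_LF, 10.30 and 10.34 in dNSC and 9.37 and 10.22 in CNS_NSC. The primitive spheres were low, ESC and dNSC high, and the CNS_NSC replicates far apart. Itga5 was lower in pNSC_L than in ESC by -0.79 ± 0.22 (limma adjusted p = 0.041), a call lost when any 1 of the 4 arrays was left out (-0.90 to -0.69, adjusted p up to 0.17 in these). It rose by 1.08 ± 0.22 in dNSC over pNSC_LF (adjusted p = 0.0028). Against CNS_NSC the difference was 0.52 ± 0.22 (adjusted p = 0.098), with 0.95 and a call without CNS_NSC replicate 2 and 0.10 without CNS_NSC replicate 1.

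Itga8, which with Itgb1 binds nephronectin and is known from kidney development, read 6.82 and 6.87 in ESC, 6.78 and 7.08 in pNSC_L, 7.18 and 7.25 in pNSC_LF, 8.32 and 8.54 in dNSC and 7.85 and 7.93 in CNS_NSC. dNSC was the highest group, above CNS_NSC on both arrays. Itga8 rose by 1.22 ± 0.13 in dNSC over pNSC_LF (limma adjusted p = 3.5e-05) and by 1.59 ± 0.13 over ESC (adjusted p = 5.7e-06). Over CNS_NSC it was higher by 0.54 ± 0.13 (adjusted p = 0.0076), or 0.43 (adjusted p = 0.081) without dNSC replicate 2. Itga2b, the platelet fibrinogen receptor chain, ran between 7.48 and 7.82 on all 10 arrays and passed neither the F test nor any comparison.

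Itga4 and Itga9, a pair of related alpha subunits that bind fibronectin, Vcam1 and tenascins, separated dNSC from CNS_NSC in opposite directions. Itga4 read 6.66 and 6.76 in ESC, 7.22 and 6.63 in pNSC_L, 6.83 and 7.05 in pNSC_LF, 7.54 and 7.29 in dNSC and 10.97 and 11.46 in CNS_NSC. Both CNS_NSC arrays stood far above the other 8. The difference, dNSC minus CNS_NSC, was -3.81 ± 0.21, or 14.0-fold (limma adjusted p = 4.7e-07). In dNSC Itga4 was 0.71 ± 0.21 higher than in ESC (adjusted p = 0.021), a call lost on leaving out 3 of the 4 arrays compared, one at a time. The difference was 0.65 (adjusted p = 0.11) without ESC replicate 1, 0.76 (adjusted p = 0.064) without ESC replicate 2 and 0.58 (adjusted p = 0.14) without dNSC replicate 1.

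Itga9 read 9.33 and 9.35 in ESC, 9.17 and 9.04 in pNSC_L, 8.48 and 8.64 in pNSC_LF, 8.76 and 8.74 in dNSC and 7.57 and 7.86 in CNS_NSC. It was highest in ESC and lowest in CNS_NSC, and no 2 groups overlapped. In dNSC it was 1.03 ± 0.12 above CNS_NSC (limma adjusted p = 9.1e-05) and lower than in ESC by -0.59 ± 0.12 (adjusted p = 0.0029). The difference in pNSC_LF against pNSC_L was -0.55 ± 0.12 (adjusted p = 0.057), and it was called in 5 of the alternative settings.

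Among the collagen receptors, Itga1 and Itga2 differed and Itga10 and Itga11 did not pass the F test. Itga1 read 7.15 and 6.89 in ESC, 6.21 and 6.36 in pNSC_L, 6.80 and 6.47 in pNSC_LF, 7.73 and 7.67 in dNSC and 7.72 and 7.98 in CNS_NSC. It was dim in pNSC_L, and dNSC and CNS_NSC overlapped at the top. Itga1 was lower in pNSC_L than in ESC by -0.74 ± 0.15 (limma adjusted p = 0.0092; -0.61 with adjusted p = 0.090 without ESC replicate 1). It rose by 1.07 ± 0.15 in dNSC over pNSC_LF (adjusted p = 0.00023).

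Itga2 read 6.52 and 6.63 in ESC, 7.03 and 6.90 in pNSC_L, 7.01 and 6.87 in pNSC_LF, 7.24 and 7.35 in dNSC and 8.51 and 8.09 in CNS_NSC. The order was ESC at the bottom, the 2 primitive groups overlapping, then dNSC, with CNS_NSC clear of all. Itga2 was lower in dNSC than in CNS_NSC by -1.01 ± 0.14 (limma adjusted p = 0.00031) and 0.72 ± 0.14 higher in dNSC than in ESC (adjusted p = 0.0021). Itga10 ran between 7.22 and 7.55, and Itga11 between 6.63 and 6.91, over all 10 arrays.

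Of the 8 genes counted as leukocyte subunits, 3 passed the F test, namely Itgad, Itgal and Itgb7, against 57.7% of all genes. Itgb7, which pairs with Itga4 or Itgae on lymphocytes, read 8.47 and 8.40 in ESC, 7.62 and 7.56 in pNSC_L, 7.75 and 7.75 in pNSC_LF, 7.08 and 7.24 in dNSC and 7.24 and 7.31 in CNS_NSC. ESC was the highest group, and dNSC and CNS_NSC lay side by side at the bottom. Itgb7 fell by 0.85 ± 0.10 in pNSC_L (limma adjusted p = 0.00067) and by a further 0.59 ± 0.10 in dNSC against pNSC_LF (adjusted p = 0.00098). Against ESC the dNSC difference was -1.27 ± 0.10 (adjusted p = 5.3e-06).

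Itgal, the lymphocyte receptor chain for Icam1, fell by 0.53 ± 0.11 in dNSC against pNSC_LF (limma adjusted p = 0.0037) and lay lower by -0.48 ± 0.11 against ESC (adjusted p = 0.0062), a call lost without ESC replicate 2 or dNSC replicate 2. Itgad rose by 0.60 ± 0.12 in dNSC over pNSC_LF (adjusted p = 0.0032) on the brighter of its 2 probe sets. Over the alternative settings, averaged probe sets among them, that difference ran from 0.31 to 0.69. Itgb2l was 0.40 ± 0.14 higher in dNSC than in ESC (adjusted p = 0.045), although it did not pass the F test and lost the call in 9 settings. Itgae, Itgam, Itgax and Itgb2, the common beta chain of leukocytes, passed no test, and the first 3 of these were dim in at least 1 group. Ptprc, which marks nearly all leukocytes, lay below the lower quartile in every group, at 6.27 and 6.06 in dNSC, against 6.24 and 5.98 in pNSC_LF. The mean over 10 leukocyte and microglia markers was 7.03 and 6.98 in dNSC, against 7.78 and 7.75 in pNSC_LF. Most of that gap came from the lysosomal genes Cd68, at 7.81 and 7.68 in dNSC, against 11.14 and 11.08 in pNSC_LF, and Laptm5, at 7.79 and 7.76 in dNSC, against 11.92 and 11.65 in pNSC_LF.

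Among the 4 genes that encode no subunit, Itgb1bp1 was lower in dNSC than in CNS_NSC by -0.50 ± 0.12 (limma adjusted p = 0.0081), a call lost without dNSC replicate 1 or CNS_NSC replicate 2. Itgb3bp read 6.63 and 7.55 in pNSC_L, against 7.91 and 7.84 in ESC. Its replicates in pNSC_L were as far apart as the groups, and the difference of -0.78 was not called (adjusted p = 0.054). Itgb1bp2 and Itgbl1 passed no test.

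Of the 10 laminin chains, 2 were higher and 4 lower in dNSC than in pNSC_LF, against 19.3% higher and 19.3% lower of all genes. Of these 6 calls on laminin chains, those of Lamb1 and Lama5 held when any 1 of the 4 arrays was left out. Lama1, the alpha chain of the first embryonic basement membranes, read 10.00 and 10.09 in ESC, 10.93 and 10.53 in pNSC_L, 11.09 and 11.05 in pNSC_LF, 10.32 and 10.32 in dNSC and 7.93 and 7.22 in CNS_NSC. All 8 R1-derived arrays lay far above both CNS_NSC arrays. Lama1 was 2.74 ± 0.21 higher in dNSC than in CNS_NSC, or 6.69-fold (limma adjusted p = 3.9e-06). It fell by 0.75 ± 0.21 in dNSC against pNSC_LF (adjusted p = 0.015), a call lost when any 1 of the 4 arrays was left out (-0.77 to -0.73, adjusted p up to 0.072 in these). In pNSC_L minus ESC it was 0.69 ± 0.21 (adjusted p = 0.054), and 8 of the alternative settings called it.

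Lamb1, the beta chain that joins Lama1, read 10.21 and 10.12 in ESC, 9.65 and 9.61 in pNSC_L, 9.07 and 9.02 in pNSC_LF, 10.36 and 10.38 in dNSC and 9.37 and 9.87 in CNS_NSC. It was lowest in pNSC_LF and highest in dNSC on every array. Lamb1 rose by 1.33 ± 0.15 in dNSC over pNSC_LF (limma adjusted p = 5.1e-05) and was 0.75 ± 0.15 higher in dNSC than in CNS_NSC (adjusted p = 0.0025). Its difference in pNSC_L against ESC was -0.54 ± 0.15 (adjusted p = 0.037), a call lost without any 1 of the 4 arrays (-0.58 to -0.49, adjusted p up to 0.19). In pNSC_LF against pNSC_L it was -0.59 ± 0.15 (adjusted p = 0.084).

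Lamc1, the gamma chain of most laminins, was high throughout and called in no comparison of the main fit although it passed the F test. It read 11.82 and 11.91 in ESC, 12.47 and 12.10 in pNSC_L, 12.01 and 12.09 in pNSC_LF, a mean of 11.47 ± 0.04 (SD, n = 2) in dNSC and 10.52 and 11.42 in CNS_NSC. The CNS_NSC replicates lay far apart, and dNSC minus CNS_NSC was 0.50 ± 0.24 (limma adjusted p = 0.14, 95% interval -0.03 to 1.03). That difference was 0.95 and called without CNS_NSC replicate 2, and 0.05 without CNS_NSC replicate 1. The difference in dNSC against pNSC_LF was -0.58 ± 0.24 (limma adjusted p = 0.084), and against ESC it was -0.40 ± 0.24 (adjusted p = 0.23). Both were called with array weights and with only the 2 groups compared.

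Lama5, the most widely used alpha chain of later basement membranes, read 10.42 and 10.29 in ESC, 10.74 and 10.26 in pNSC_L, 10.76 and 10.71 in pNSC_LF, 9.70 and 9.72 in dNSC and 9.16 and 9.86 in CNS_NSC. dNSC and CNS_NSC lay below the 3 groups grown with Lif. Lama5 fell by 1.03 ± 0.21 in dNSC against pNSC_LF (limma adjusted p = 0.0033). Against ESC the difference was -0.64 ± 0.21 (adjusted p = 0.035), lost without any 1 of the 4 arrays (-0.71 to -0.58, adjusted p up to 0.16). Against CNS_NSC it was 0.20 ± 0.21 (adjusted p = 0.54), with 0.55 and a call without CNS_NSC replicate 2 but -0.15, of the opposite sign, without CNS_NSC replicate 1.

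Lama4, the alpha chain of vessel walls, read 6.57 and 6.43 in ESC, 6.86 and 6.89 in pNSC_L, 6.63 and 6.66 in pNSC_LF, 7.07 and 6.88 in dNSC and 8.83 and 8.17 in CNS_NSC. Only the CNS_NSC arrays stood clear, and dNSC minus CNS_NSC was -1.53 ± 0.18 (limma adjusted p = 1e-04). Lama2, the alpha chain of muscle and peripheral nerve, was dim in ESC and rose in dNSC by 0.36 ± 0.11 over pNSC_LF (adjusted p = 0.026) and by 0.59 ± 0.11 over ESC (adjusted p = 0.0016). The first of these was lost without any 1 of the 4 arrays, and so was the 0.33 ± 0.11 over CNS_NSC (adjusted p = 0.040).

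Lama3 and Lamb3, chains of the laminin of epithelial anchoring, were called in the same direction in pNSC_L against ESC and in dNSC against pNSC_LF. In pNSC_LF against pNSC_L they parted, though neither was called. There Lama3 differed by -0.53 ± 0.14 (limma adjusted p = 0.11) and Lamb3 by 0.01 ± 0.10 (adjusted p = 0.99). In pNSC_L over ESC Lama3 rose by 0.58 ± 0.14 (limma adjusted p = 0.024) and Lamb3 by 0.38 ± 0.10 (adjusted p = 0.026). In dNSC against pNSC_LF Lama3 fell by 0.42 ± 0.14 (adjusted p = 0.039) and Lamb3 by 0.31 ± 0.10 (adjusted p = 0.026). Both rises were lost without ESC replicate 1, ESC replicate 2 or pNSC_L replicate 2, and both falls without any 1 of the pNSC_LF and dNSC arrays, with adjusted p up to 0.21. Lamb2, the beta chain of the neuromuscular junction and kidney filter, was 0.51 ± 0.13 higher in pNSC_L than in ESC (adjusted p = 0.025, lost without ESC replicate 1, ESC replicate 2 or pNSC_L replicate 1) and 0.58 ± 0.13 higher in dNSC than in ESC (adjusted p = 0.0041). Lamc3, a further gamma chain, ran between 7.99 and 8.44 and passed no test.

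**Figure D4:**
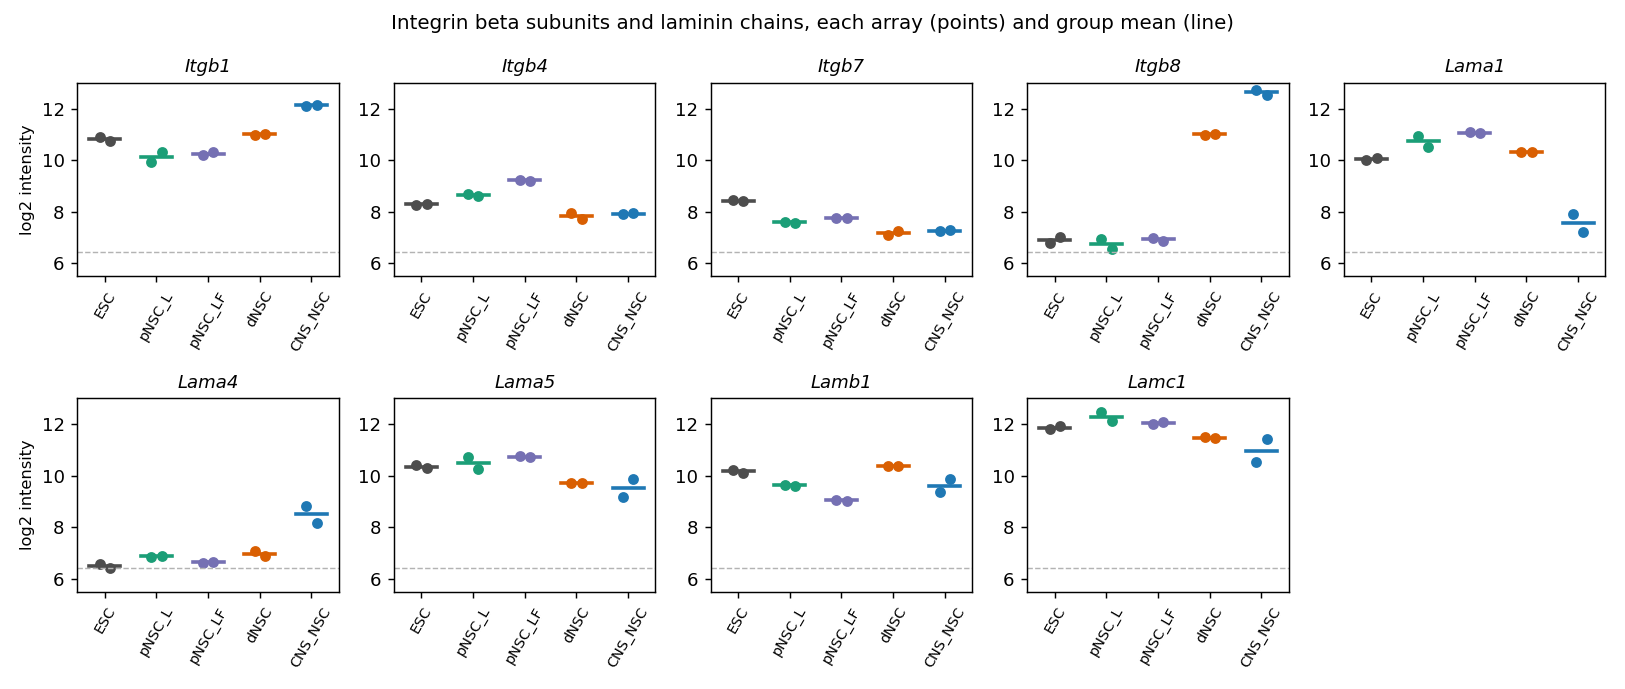
Log2 intensity (y axis) of 4 integrin beta subunits and 5 laminin chains on each array (points) with the group mean (line) in ESC, pNSC_L, pNSC_LF, dNSC and CNS_NSC (x axis); the dashed line marks the lower quartile of all probe sets, 6.43. Itgb8 lies near that line in the 3 groups grown with Lif and far above it in dNSC and CNS_NSC, while Lama1 lies far lower in CNS_NSC than in the other groups.

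Other ligands and matrix partners of these receptors were followed in a list of 25 genes, 24 of them measured. In pNSC_L against ESC 8 were higher and 1 lower (37.5% called, against 13.4% of all genes). The basement membrane collagen Col4a1 read 9.09 and 8.97 in pNSC_L, against 7.83 and 7.93 in ESC, a rise of 1.15 ± 0.10 (limma adjusted p = 0.00012). Tenascin C, Tnc, read 7.34 and 7.86 in pNSC_L, against 6.29 and 6.36 in ESC, and the matrix protein Fbln1 fell by 0.48 ± 0.11 (adjusted p = 0.017). In pNSC_LF against pNSC_L only Tgfb1 of the 24 was called, at 0.45 ± 0.09 (adjusted p = 0.043). Leaving out 1 array gave 0 calls by limma among the 24, with 4 to 6 at an unadjusted p below 0.05, for each ESC, pNSC_LF and dNSC array and for pNSC_L replicate 2, and 2 calls for pNSC_L replicate 1 and each CNS_NSC array.

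In dNSC against pNSC_LF 7 of the 24 were higher and 6 lower (54.2%, against 38.6% of all genes). Thrombospondin, Thbs1, read 11.07 and 10.98 in dNSC, against 7.98 and 8.07 in pNSC_LF, and vitronectin, Vtn, a ligand of Itgav receptors, read 8.91 and 8.78 in dNSC, against 6.74 and 6.78 in pNSC_LF. The basement membrane proteoglycan perlecan, Hspg2, fell by 1.76 ± 0.13 (limma adjusted p = 3.4e-06), and the laminin-binding Nid2 fell by 1.63 ± 0.16 (adjusted p = 2.8e-05). Against ESC 10 were higher and 5 lower in dNSC (62.5%, against 40.5% of all genes), with Thbs1 at 3.65 ± 0.14 and the laminin receptor Bcam at -0.97 ± 0.10.

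Against CNS_NSC 11 of the 24 were higher and 4 lower in dNSC (62.5%, against 34% of all genes). Fibronectin, Fn1, the main ligand of Itga5, read 12.80 and 12.73 in dNSC, against 8.77 and 10.05 in CNS_NSC, a difference of 3.36 ± 0.30 (limma adjusted p = 1.5e-05). Tnc, a ligand of Itga9, read 7.98 and 7.98 in dNSC, against 12.42 and 13.12 in CNS_NSC, a difference of -4.79 ± 0.22 (adjusted p = 1.4e-07). Ntn4, a netrin related to laminins, was lower in dNSC by -2.16 ± 0.31 (adjusted p = 4e-04). The groups did not overlap for any of the 3 genes.

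Inside the cell, integrin tails are held by a complex of talin, kindlin, Ilk, parvin and other adaptors, and 26 of a list of 28 such genes were measured. In pNSC_L against ESC 3 of the 26 were called, all higher, against 13.4% of all genes, led by the tensin Tns1 at 1.21 ± 0.14 (limma adjusted p = 0.00062) and Kank1 at 0.73 ± 0.18 (adjusted p = 0.022). That count was 1 without ESC replicate 1 or ESC replicate 2 and 5 without CNS_NSC replicate 1 or CNS_NSC replicate 2. In pNSC_LF against pNSC_L only zyxin, Zyx, was called, at 0.62 ± 0.11 (adjusted p = 0.020), and 0 of the 26 were called without pNSC_LF replicate 1 or pNSC_LF replicate 2, where 2 and 4 had an unadjusted limma p below 0.05.

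In dNSC against pNSC_LF 7 of the 26 were higher and 7 lower (53.8%, against 38.6%). The parvins moved in opposite directions: Parva read 10.65 and 10.57 in dNSC, against 8.07 and 8.19 in pNSC_LF, while Parvb read 8.78 and 8.79 in dNSC, against 10.81 and 10.92 in pNSC_LF. The kinase Fyn was 2.27 ± 0.15 higher (limma adjusted p = 1.3e-06) and the tensin Tns3 lower by -1.85 ± 0.14 (adjusted p = 3.9e-06). Against ESC 7 were higher and 5 lower (46.2%, against 40.5%). Against CNS_NSC 8 were higher and 10 lower in dNSC (69.2%, against 34%), with alpha-actinin Actn1 at 2.42 ± 0.11 and the Ilk partner Lims1 at -1.09 ± 0.11. Without dNSC replicate 1, or without dNSC replicate 2, 11 of the 26 were called.

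Markers of other cells moved in dNSC beside these genes. The mean over 10 endoderm markers was 9.08 and 9.04 in dNSC, against 7.92 and 7.90 in pNSC_LF and 7.81 and 7.66 in CNS_NSC. Not every endoderm marker was higher in dNSC. Sox7 read 7.91 and 7.89 in dNSC, against 8.14 and 8.23 in pNSC_LF. Gata4 was nearly level, at 8.77 and 8.70 in dNSC, against 8.73 and 8.66 in pNSC_LF. The mean over 9 fibroblast markers was 8.33 and 8.25 in dNSC, against 7.44 and 7.42 in pNSC_LF and 7.25 and 7.21 in CNS_NSC, with Lum below the lower quartile in every group. Of these markers Thy1 was lower, at 8.08 and 7.89 in dNSC, against 8.65 and 8.67 in pNSC_LF. The mean over 8 endothelial markers was 8.31 and 8.28 in dNSC, against 7.91 and 7.88 in pNSC_LF and 7.15 and 7.17 in CNS_NSC, but its genes went both ways. Emcn read 9.21 and 9.23 in dNSC, against 5.77 and 5.88 in pNSC_LF, and Kdr 8.73 and 8.81, against 7.25 and 7.07. Pecam1, also made by ES cells, read 7.97 and 8.02 in dNSC, against 10.59 and 10.68 in pNSC_LF, and Tek 7.50 and 7.44, against 8.77 and 8.77. Laminin chains such as Lama1, Lamb1 and Lama2, and ligands such as Fn1 and Thbs1, are also made by such cells, and the part of these markers in the results for dNSC was not tested. The fibroblast marker mean was 7.78 and 7.97 in pNSC_L, against 7.29 and 7.43 in ESC, which were grown on feeders. Dcn read 8.79 and 10.41 in pNSC_L, against 6.06 and 6.48 in ESC, while Thy1 read 8.73 and 8.71 in pNSC_L, against 9.57 and 9.38 in ESC.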

How the data were processed

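RNA of 10 cultures was hybridised to Affymetrix gene arrays. The deposited table holds log2 intensities of 35556 probe sets; the submitters' processing notes name RMA, which normalizes between arrays and compresses differences of dim probe sets, and Partek. No header states the log base, which was taken from the range of the values. Probe sets with 1 gene symbol (21789) were kept, 1621 with several and 12146 with none were not, and for 999 genes the brightest of several probe sets was used; of the 41 genes here this concerned Itgad. A model with 5 group means was fitted to the 10 arrays in limma 3.58.1 (R 4.3.3), with 5 residual and 4.9 prior degrees of freedom; a difference had a median SE of 0.13. P-values were adjusted by Benjamini-Hochberg over 19938 genes, threshold 0.05. The fit was tested on simulated data. The integrin and laminin genes and the lists were chosen with earlier results of these data known.

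Values are given for genes that passed the F test and were called with a difference of at least 1 (log2) in a comparison, and for Itgb1, Itga6, Itgav, Lamb1 and Lamc1; from the partner and ligand lists up to 2 called genes in each direction. Promoters are from RefSeq, GRCm38.p6. With 10 arrays, their number limits precision. Each count was recomputed after quantile normalization, without dim genes (2 filters), with a trended prior, without moderation, with array weights, from the 2 groups in question alone, with replicate number as block, with averaged probe sets, and without each array in turn. Scan batches were not analysed here. Python 3.11.15, pandas 2.3.3 and matplotlib 3.10.9 were used.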

Additional observations from a re-analysis of the deposited data

How the results depend on the processing

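Of the 62 calls over the 5 comparisons, 38 held in every setting run, namely 3 of 12 for pNSC_L against ESC, 0 of 1 for pNSC_LF against pNSC_L, 13 of 18 for dNSC against pNSC_LF, 10 of 16 for dNSC against ESC and 12 of 15 for dNSC against CNS_NSC; 0 changed sign, and 31 uncalled differences gained a call in at least 1 setting. Leaving out the dimmest 50% of genes left 16 of the 41 genes to test, and the counts became 14 for the F test (27 with all genes), 9 for dNSC against pNSC_LF, 7 for dNSC against ESC and 9 for dNSC against CNS_NSC. For pNSC_L against ESC the unmoderated test called 6, and leaving out single arrays gave 3 to 16. For pNSC_LF against pNSC_L, 2 were called with the dimmest 30% or 50% left out, and 0 to 3 without single arrays. There 0 were called by the unmoderated test, with array weights in limma or with only the 2 groups compared, where 4, 5 and 4 had an unadjusted p below 0.05. A group left with 1 array was assumed to vary like the others. With the replicate block the counts were 28 for the F test and 14, 1, 18, 17 and 15 for the comparisons in the order above. The labels do not say that a replicate number marks shared material, and deviations of same-numbered arrays correlated between -0.107 and 0.375 over pairs of groups, so the samples were treated as unpaired; among ESC, pNSC_L and pNSC_LF the correlations were 0.183, 0.375 and 0.258. Dim values, near 6.43, limit how well the size of differences of Itga1, Itgae, Itgam, Itgax, Itgb6, Itgbl1 and Lama2 is known. The counts for the adaptor and ligand lists were recomputed in the same settings, a step chosen after seeing the data. Single arrays left out gave 1 to 5 adaptor genes for pNSC_L against ESC (3 with all arrays), 0 to 1 for pNSC_LF against pNSC_L (1) and 11 to 19 for dNSC against CNS_NSC (18), and 0 to 2 ligand genes for pNSC_LF against pNSC_L (1). In pNSC_LF against pNSC_L 0 adaptor genes were called by the unmoderated test, array weights or the 2 groups alone (4, 3 and 3 at an unadjusted limma p below 0.05), and 0 ligand genes after quantile normalization, with array weights or in the 2 groups alone (6, 5 and 6).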
